A study of Eriobotrya japonica with 9 samples.

Results

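The genes described here are the loquat (*Eriobotrya japonica*) genes that the annotation of the expression table places on the KEGG map of photosynthesis antenna proteins (map00196) or on that of porphyrin and chlorophyll metabolism (map00860), without those on the photosynthesis map (map00195). They number 98 of the 43996 genes in the table, of which 28 are antenna members and 70 are porphyrin members, and 0 are on both maps. Leaf RNA was sequenced on day 10 in 3 groups of 3 replicates. CK seedlings received water, ST seedlings received water and then 200 mmol/L NaCl, and MTST seedlings were irrigated at the root with 150 µmol/L melatonin before the same 200 mmol/L NaCl. Each group held 10 pots of 3 seedlings, and the study calls the replicates of CK and ST biological, while the labels do not say how many plants went into a library. No group received melatonin without salt, so an effect of melatonin alone cannot be told apart from its effect under salt.

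Antenna proteins are the light-harvesting chlorophyll a/b-binding proteins of the thylakoid membrane, which carry most of the chlorophyll of a leaf and pass the absorbed energy to the photosystems. Chlorophyll and heme are made in the plastid from glutamate by a common path as far as protoporphyrin, where magnesium chelatase opens the branch to chlorophyll and ferrochelatase the branch to heme. Chlorophyll b is turned back into chlorophyll a before it is broken down, and pheophorbide a oxygenase opens the porphyrin ring.

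The table pairs identifiers with GO terms and KEGG maps but not with gene names, so members are given by identifier and by the activity that their GO terms state. Of the 28 antenna members, 19 carried the GO term chlorophyll binding, 18 light harvesting in photosystem I, and 6 had no GO term. Of the 70 porphyrin members, 49 carried a term that placed them at a step. These were 15 members on the path to protoporphyrin, 15 in the magnesium branch, 11 in the conversion of chlorophyll b and the breakdown of chlorophyll, and 8 in the heme and bilin branch. A further 21 had no such term.

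Levels are given as TPM, a length-corrected scale on which every library has the same total, and changes as log2 fold changes of TPM + 1 ± SE. A gene was called at an adjusted p of at most 0.05 in limma with Benjamini-Hochberg adjustment over 23641 tested genes. The libraries held 13048770 to 14468499 reads. In the scale of TPM the median gene was 0.41 higher in ST than in CK and 0.22 lower (log2 change -0.22) in MTST than in ST. The 10 most abundant genes of a library together held 11.3% ± 0.193 of the TPM in CK, 5.87% ± 0.285 in ST and 9.77% ± 0.516 in MTST (SD, n = 3), and their part in that shift was not tested. With median-of-ratios scaling, which sets the median gene near 0, these values were 0.012 and -0.0004. Small changes can therefore turn with the scale. Of the 87 members tested, 24 had opposite signs under the 2 scalings in ST against CK, 18 in MTST against ST and 19 in MTST against CK. In ST against CK, 2 of them, Ej00062512 and Ej00057210, were called higher in TPM and lower with median-of-ratios scaling. In leaf tissue, fewer mesophyll cells and less RNA per cell cannot be told apart.

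Antenna genes were among the most abundant of the leaf transcriptome, and their share was lower under salt and higher again after melatonin. They summed to 5.71%, 5.57% and 6.69% of all TPM in the 3 CK libraries, to 3.58%, 3.22% and 3.5% in ST, and to 5.15%, 5.26% and 5.24% in MTST. The 3 groups did not overlap. Porphyrin members summed to 0.532% ± 0.031 in CK, 0.46% ± 0.0164 in ST and 0.495% ± 0.0216 in MTST (SD, n = 3), and here MTST overlapped both other groups. As a check of the labelled tissue, genes of the photosynthesis map made up 3.63% to 6.91% of the TPM of every library.

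**Figure D1:**
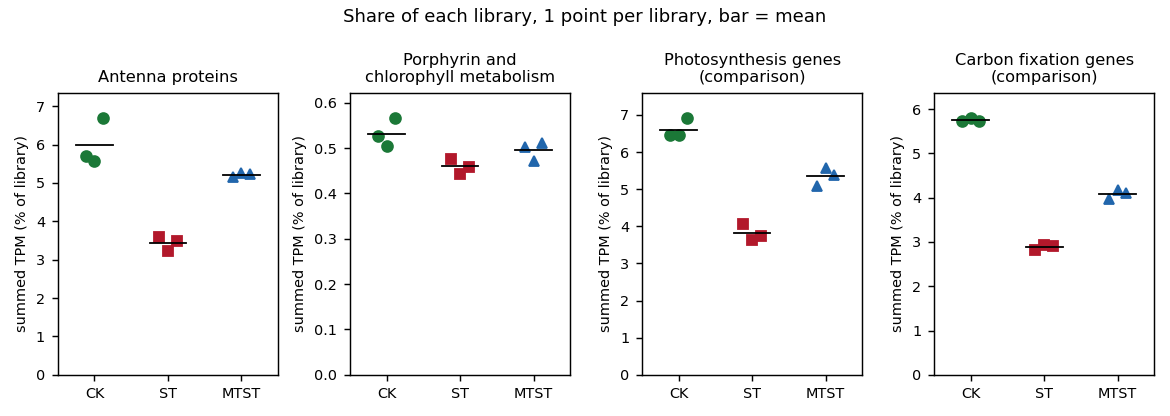
Summed TPM of 4 gene lists as a percentage of the library (vertical axis) in CK, ST and MTST, with 1 point per library and the mean as a bar. The antenna share lies between 5.57% and 6.69% in CK, between 3.22% and 3.58% in ST and between 5.15% and 5.26% in MTST.

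Of the 28 antenna genes, 27 passed the filter on low values, and the remaining member, Ej00054436, reached no more than 0.238 TPM in any library. The tested members spanned mean levels of 51.2 to 11310 TPM in CK. Their median coefficient of variation between replicates was 10.8% in CK, 9.93% in ST and 3.82% in MTST. The 5 most abundant members held 55.3% to 55.8% of the antenna TPM in CK, 53.2% to 57.5% in ST and 56.1% to 57.9% in MTST, so these genes carried most of the antenna TPM in every group.

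**Figure D2:**
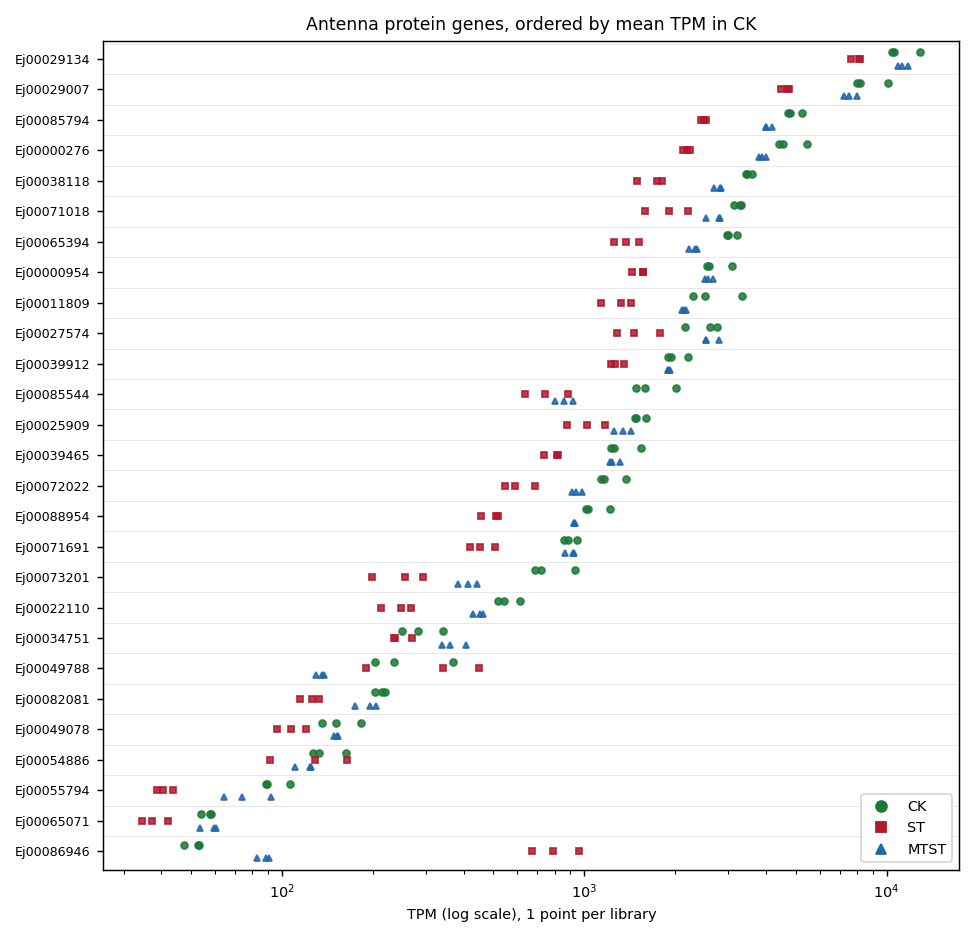
TPM of the 27 tested antenna genes (horizontal log axis), with 1 point per library, ordered by their mean in CK. In most rows the ST libraries lie to the left of the CK and MTST libraries, whereas Ej00086946, in the bottom row, lies at 673 to 958 TPM in ST and below 100 in the other groups.

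Nearly the whole antenna list was lower under salt. In ST against CK, 23 of the 27 tested members were called lower and 1 higher, beside 10.6% of all tested genes called lower and 52.8% called higher. Their median log2 fold change was -0.84, against 0.41 over all tested genes. With median-of-ratios scaling 25 were called lower and 1 higher, with a median of -1.29 against 0.012, and the background was 23.5% lower and 22.6% higher. In 23 members every ST library was below every CK library, as in 11.3% of all tested genes, and in 1 every ST library was above, as in 56.0%. The called falls ranged from -0.50 to -1.65.

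The most abundant antenna gene was Ej00029134, which has the chlorophyll binding term. It measured 10610, 10380 and 12940 TPM in CK, 8124, 7641 and 8161 in ST, and 10930, 11770 and 11270 in MTST. All ST libraries were below the others, and CK and MTST overlapped. The fall in ST was the smallest called in the list (-0.50 ± 0.17, adjusted p = 0.027 by limma), and the call was lost when CK replicate 1 (adjusted p = 0.059) or ST replicate 3 (0.063) was left out, in a fit of ST and CK alone (0.078) and without the filter (0.31). Its share of the antenna TPM was 18.9% ± 0.434 in CK and 23.3% ± 0.542 in ST (SD, n = 3), with no overlap.

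The next most abundant members fell further. Ej00029007 measured 8146, 7995 and 10090 TPM in CK, 4458, 4728 and 4754 in ST and 7239, 7975 and 7502 in MTST, a fall of 0.90 ± 0.16 on the log2 scale in ST (adjusted p = 0.00065). Ej00085794 measured 4798, 4714 and 5247 TPM in CK, 2526, 2439 and 2481 in ST and 4006, 4005 and 4179 in MTST (-0.99 ± 0.12 in ST, adjusted p = 7.1e-05 by limma). Ej00000276 measured 4543, 4413 and 5438 TPM in CK, 2129, 2193 and 2231 in ST and 3999, 3875 and 3781 in MTST (-1.13 ± 0.13 in ST, adjusted p = 4.7e-05 by limma). These 3 genes all carry the terms chlorophyll binding and light harvesting in photosystem I, and in each the groups did not overlap, with ST lowest, MTST between and CK highest. Ej00038118, which has the same terms, measured 3462, 3429 and 3578 TPM in CK, 1813, 1495 and 1742 in ST and 2691, 2836 and 2818 in MTST (-1.06 ± 0.12 in ST, adjusted p = 4.1e-05 by limma). The photosystem I term was on 18 antenna members, among them Ej00011809, which also has the photosystem II term. It therefore does not separate the antenna genes of the photosystems.

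The largest fall was that of Ej00073201, an antenna gene with no GO term. It measured 720, 686 and 934 TPM in CK, 294, 199 and 256 in ST and 441, 383 and 414 in MTST. The fall in ST was 1.65 ± 0.16 on the log2 scale (adjusted p = 1.6e-05), and its share of the antenna TPM went from 1.3% ± 0.0881 to 0.724% ± 0.102 (SD, n = 3). Ej00022110, whose terms include responses to high light and to far-red light, measured 542, 520 and 615 TPM in CK, 268, 213 and 248 in ST and 463, 430 and 452 in MTST (-1.20 ± 0.10 in ST, adjusted p = 9.1e-06 by limma). Among the members with terms of photosystem II light harvesting, Ej00011809 (-1.05 ± 0.15) and Ej00072022 (-1.01 ± 0.12) were both called lower in ST (adjusted p = 0.00022 and 5.2e-05 by limma).

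A single antenna gene went the other way. Ej00086946 measured 47.6, 52.8 and 53.3 TPM in CK, 792, 673 and 958 in ST and 91, 83 and 88.8 in MTST. Among the 27 tested antenna genes its level ranked 27 in CK, 13 in ST and 25 in MTST, and among all genes it ranked 3113 in CK and 99 in ST. This was a rise of 3.94 ± 0.12 on the log2 scale (adjusted p = 3.4e-08) or 15.8-fold in mean TPM, and 3.49 with median-of-ratios scaling. In MTST it was 3.18 lower (log2 change -3.18 ± 0.12, adjusted p = 2e-06) than in ST, while still above CK by 0.76 ± 0.12 (adjusted p = 0.00074), and the 3 groups did not overlap. It made up 0.086% ± 0.00785 of the antenna TPM in CK, 2.35% ± 0.344 in ST and 0.168% ± 0.00961 in MTST (SD, n = 3).

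Ej00086946 is 1 of 4 antenna genes whose length recovered from the FPKM values was 798 bases, and 3 of these (Ej00086946, Ej00049788 and Ej00027574) share a set of 27 GO terms that place them in the chloroplast thylakoid membrane without a term for chlorophyll binding. They did not move alike. Ej00027574 measured 2604, 2161 and 2744 TPM in CK, 1785, 1286 and 1466 in ST and 2533, 2781 and 2526 in MTST, and thus fell in ST (-0.73 ± 0.15, adjusted p = 0.0017 by limma). Ej00049788 measured 235, 203 and 369 TPM in CK, 449, 189 and 342 in ST and 130, 138 and 136 in MTST, with widely spread and overlapping values in CK and ST (0.24 ± 0.29, adjusted p = 0.48 by limma) and all MTST libraries below both. Whether these genes are near-identical copies cannot be shown by their lengths and terms alone. If they are, reads could have been split between them, and the table does not show how shared reads were counted.

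The other tested antenna genes not called in ST against CK were Ej00034751 (-0.23 ± 0.12, adjusted p = 0.13 by limma) and Ej00054886 (-0.17 ± 0.18, adjusted p = 0.44 by limma), which carries a term of the light-harvesting complex of photosystem II. With median-of-ratios scaling both were called lower, by 0.67 and by 0.61 on the log2 scale (log2 changes -0.67 and -0.61).

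**Figure D3:**
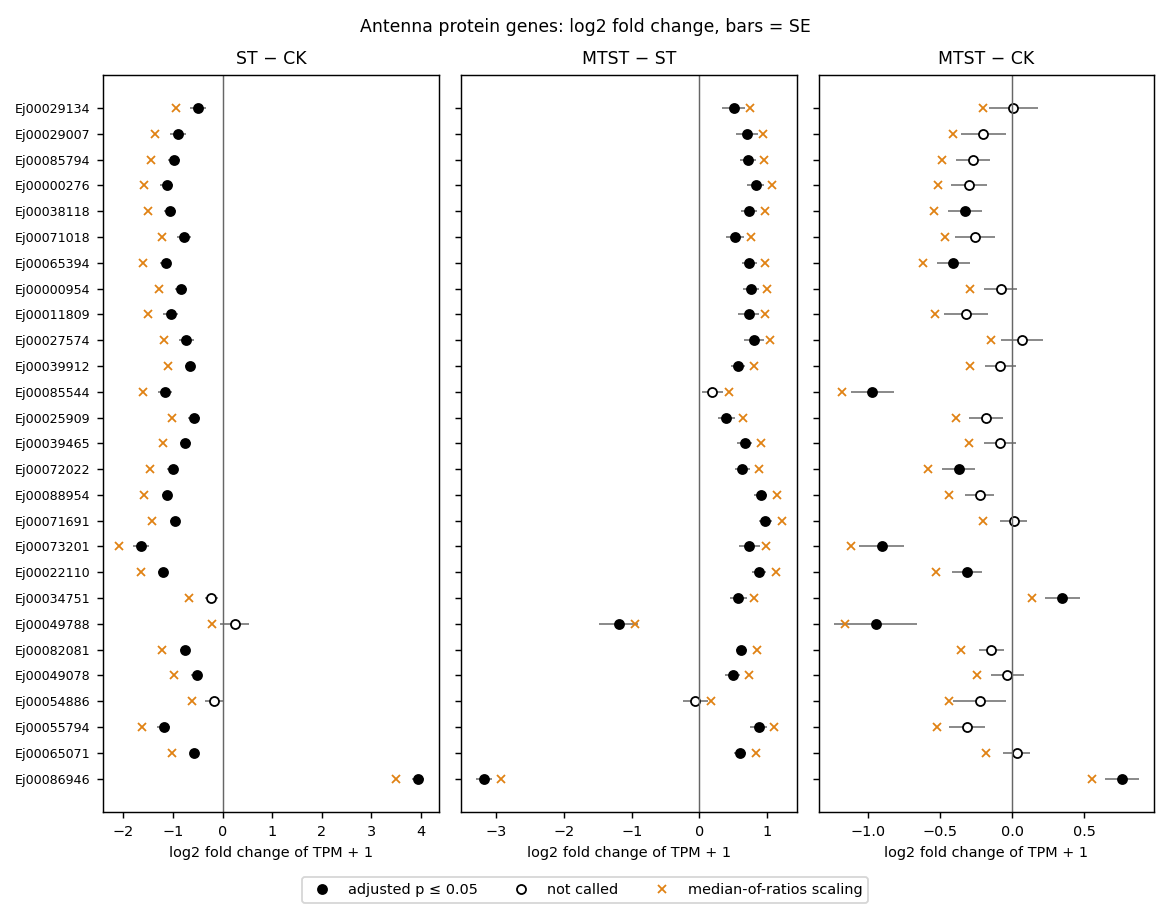
Log2 fold changes of TPM + 1 (horizontal axes, bars are SE) of the 27 tested antenna genes in ST against CK, MTST against ST and MTST against CK, from limma. Filled points are called at an adjusted p of at most 0.05, open points are not, and crosses give the value with median-of-ratios scaling. In the left panel 23 filled points lie below 0 and the only filled point above is Ej00086946, at 3.94, and in the middle panel 23 lie above 0.

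After melatonin the list moved in the opposite direction. In MTST against ST, 23 of the 27 tested members were called higher and 2 lower, beside 7.9% of all tested genes called higher and 29.8% called lower. Their median was 0.67, against -0.22 over all tested genes. With median-of-ratios scaling 24 were called higher and 2 lower, with a median of 0.91 against -0.0004 and a background of 15.1% higher and 13.6% lower. All 3 comparisons share libraries, so a change in ST enters this comparison and the previous one with opposite signs. In 23 members every MTST library was above every ST library, as in 11.1% of all tested genes, and in 2 below, as in 40.9%.

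The called rises in MTST against ST ranged from 0.40 to 0.97. Ej00071691, an antenna gene without GO terms, had the largest of them. It measured 860, 883 and 946 TPM in CK, 421, 506 and 452 in ST and 863, 927 and 917 in MTST, a rise of 0.97 ± 0.10 (adjusted p = 0.00012), and CK and MTST overlapped. The genes called lower were Ej00086946 and Ej00049788 (-1.19 ± 0.29, adjusted p = 0.01 by limma). The rise of the most abundant gene, Ej00029134, was 0.51 ± 0.17 (adjusted p = 0.04 by limma), and this call was lost without MTST replicate 1, 2 or 3 or ST replicate 2 or 3 (adjusted p = 0.063 to 0.12) and without the filter (0.36).

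Some members stayed below CK in MTST. In MTST against CK, 7 of the 27 antenna members were called lower and 2 higher, beside 10.9% of all tested genes called lower and 29.7% higher, and 18 were not called. Their median was -0.22, against 0.19 over all tested genes. With median-of-ratios scaling 15 were called lower and 1 higher, with a median of -0.44 and a background of 18.8% lower and 17.1% higher. In 15 members every MTST library was below every CK library, as in 15.3% of all tested genes, and in 1 above, as in 39.7%. The count of 7 was 4, 6 and 3 without CK replicate 1, 2 and 3, 4, 2 and 4 without MTST replicate 1, 2 and 3, 5 without ST replicate 3 and 3 without the filter. In these runs 7.76% to 10.8% of all tested genes were called lower.

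The falls of Ej00085544 and Ej00073201 against CK were called under every alternative run. Ej00085544, with terms of the photosystem II light-harvesting complex and of nonphotochemical quenching, the release of excess absorbed energy as heat, measured 1595, 1480 and 2014 TPM in CK, 887, 638 and 745 in ST and 857, 801 and 918 in MTST. It fell in ST (-1.16 ± 0.15, adjusted p = 0.0001 by limma), and in MTST it was 0.19 ± 0.15 above ST (adjusted p = 0.33, but called at 0.43 with median-of-ratios scaling), with overlapping libraries, and 0.97 ± 0.15 below CK (log2 change -0.97, adjusted p = 0.00069). Ej00073201 was 0.91 ± 0.16 below CK in MTST (log2 change -0.91, adjusted p = 0.0013 by limma). Ej00049788 was also called lower in MTST than in CK (-0.95 ± 0.29, adjusted p = 0.024 by limma), but not without CK replicate 3 or MTST replicate 1, 2 or 3 (adjusted p = 0.06 to 0.077).

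Shares within the antenna list do not depend on the scaling of the library. Ej00029134 held 21.7% ± 0.589 of the antenna TPM in MTST and 18.9% ± 0.434 in CK, and Ej00085544 held 1.65% ± 0.116 in MTST and 2.82% ± 0.18 in CK (SD, n = 3).

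Porphyrin and chlorophyll genes showed smaller and less uniform changes, and their balance depended on the scale. Of the 70 members, 60 were tested. In ST against CK, 18 were called higher and 13 lower, beside 52.8% and 10.6% of all tested genes, with a median of 0.066 against 0.41. With median-of-ratios scaling 4 were called higher and 32 lower, beside 22.6% and 23.5%, with a median of -0.35 against 0.012. In MTST against ST, 10 were called higher and 8 lower, beside 7.9% and 29.8%, with a median of -0.013 against -0.22. With median-of-ratios scaling these counts were 23 and 2, beside 15.1% and 13.6%, with a median of 0.21. In MTST against CK, 14 were called higher and 10 lower, beside 29.7% and 10.9%, with a median of 0.04 against 0.19. With median-of-ratios scaling they were 8 and 17, beside 17.1% and 18.8%, with a median of -0.17.

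**Figure D4:**
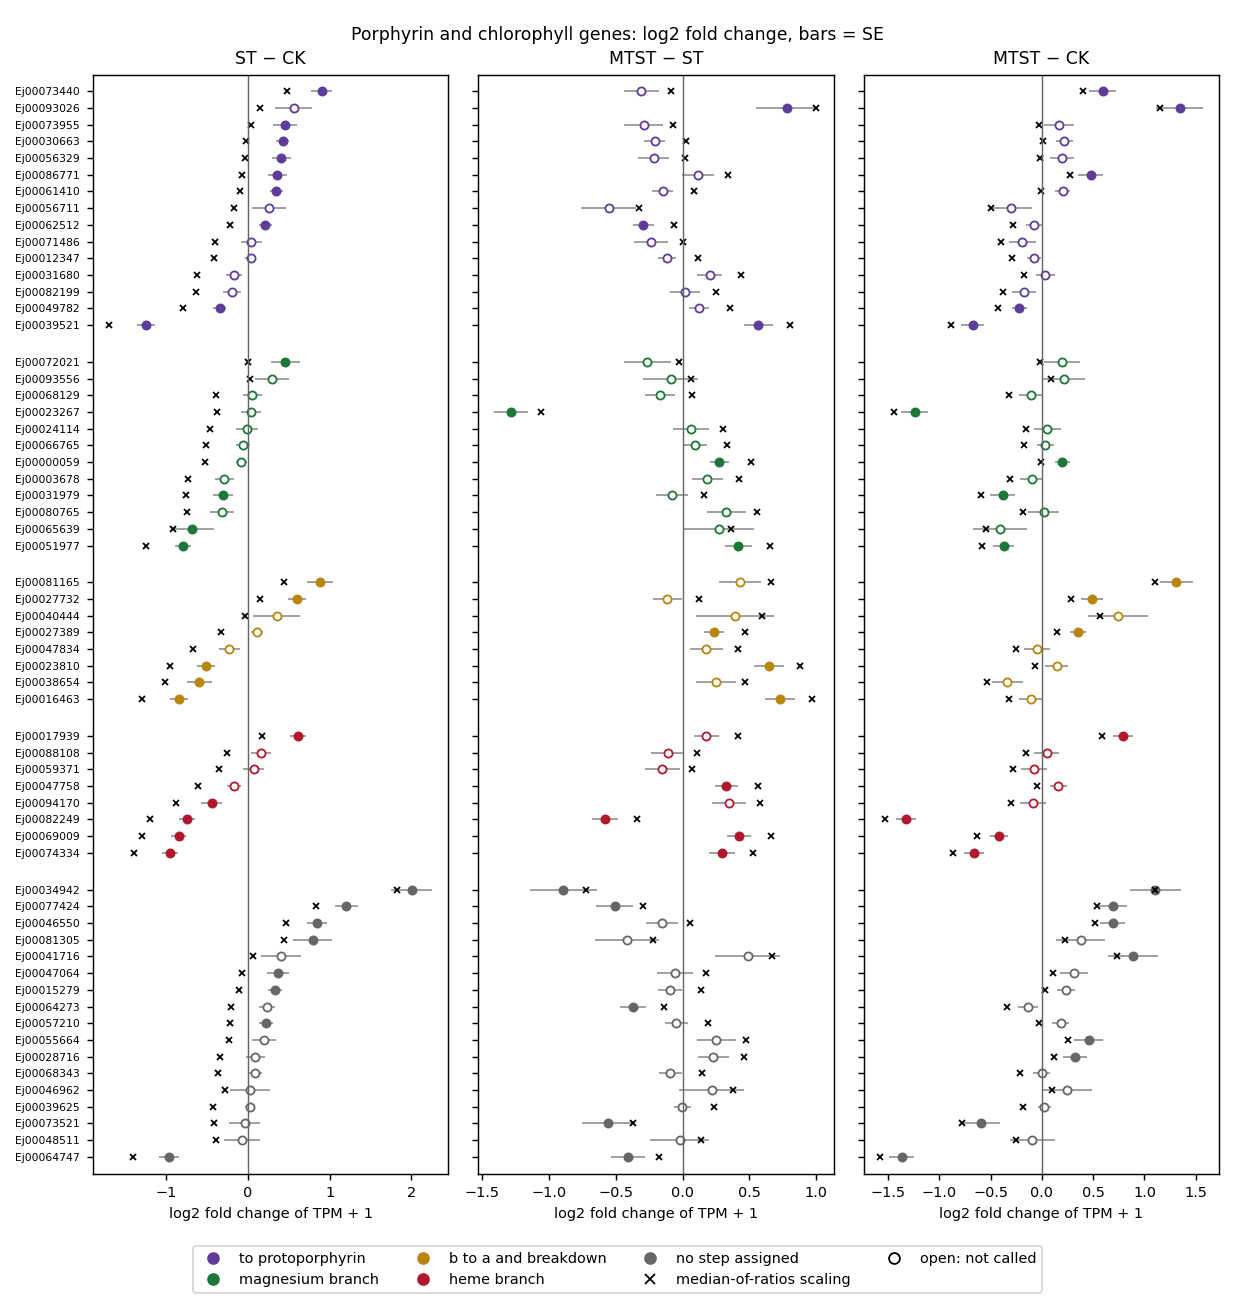
Log2 fold changes of TPM + 1 (horizontal axes, bars are SE) of the 60 tested porphyrin and chlorophyll genes, grouped by step, in the 3 comparisons. Filled points are called at an adjusted p of at most 0.05 by limma and crosses give the value with median-of-ratios scaling. In ST against CK the lowest point of the path to protoporphyrin is Ej00039521 at -1.24, and in MTST against ST the lowest point of the magnesium branch is Ej00023267 at -1.28.

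On the path from glutamate to protoporphyrin, all 15 members were tested, and in ST against CK 7 were called higher and 2 lower, beside 52.8% and 10.6% of all tested genes. With median-of-ratios scaling 1 was called higher and 7 lower, beside 22.6% and 23.5%. Between MTST and ST the counts were 2 and 1 (beside 7.9% and 29.8%), and 4 and 0 with that scaling (15.1% and 13.6%). Between MTST and CK they were 3 and 2 (29.7% and 10.9%), and 2 and 6 (17.1% and 18.8%). Glutamyl-tRNA reductase is the enzyme that commits glutamate to tetrapyrroles and the main point of control of the path. Its most abundant gene, Ej00039521, measured 313, 301 and 365 TPM in CK, 149, 121 and 141 in ST and 224, 190 and 197 in MTST. The 3 groups did not overlap. It fell in ST (-1.24 ± 0.11, adjusted p = 1.1e-05), was higher in MTST than in ST (0.57 ± 0.11, adjusted p = 0.0034) and stayed below CK in MTST (-0.68 ± 0.11, adjusted p = 0.00095). A gene of the same activity and nearly the same length, Ej00031680, measured 194, 185 and 220 TPM in CK, 184, 167 and 180 in ST and 212, 185 and 216 in MTST, and was called in none of the comparisons in TPM (-0.17 ± 0.09 in ST, adjusted p = 0.14 by limma), although with median-of-ratios scaling it was called lower in ST (log2 change -0.62) and higher in MTST than in ST (0.44).

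Of the middle steps of the path, some genes were called higher in ST in TPM, by 0.22 to 0.43 among those described next, against a median of 0.41 over all genes. Both porphobilinogen synthase genes, which join aminolevulinate into the pyrrole ring, rose by 0.35 ± 0.08 (Ej00061410, adjusted p = 0.0028) and 0.43 ± 0.08 (Ej00030663, adjusted p = 0.0011), and neither was called with median-of-ratios scaling (-0.09 and -0.02). The same held for the hydroxymethylbilane synthase gene Ej00056329, which links pyrroles into a chain, at 0.41 ± 0.12 (adjusted p = 0.011 by limma) and -0.03. The less abundant Ej00062512 of the same activity was called higher in TPM (0.22 ± 0.08, adjusted p = 0.035 by limma) and lower with median-of-ratios scaling (-0.22), so its direction turned with the scale. Its call in TPM was also lost in a fit of ST and CK alone (adjusted p = 0.056), with FPKM as deposited (0.14), in limma-voom (0.15), and without CK replicate 1, 2 or 3 or ST replicate 1 or 3 (0.056 to 0.1). Neither of the 2 uroporphyrinogen-III synthase genes, which close the ring, was called in TPM.

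Uroporphyrinogen decarboxylase, which trims the side chains of the closed ring, had 3 tested genes. Ej00093026 measured 9.05, 6.83 and 8.9 TPM in CK, 8.02, 14.8 and 16.4 in ST and 20.3, 26.7 and 20.5 in MTST, so that all MTST libraries were above the rest. It rose in MTST against CK (1.34 ± 0.23, adjusted p = 0.0013) and against ST (0.78 ± 0.23, adjusted p = 0.024), the latter not without MTST replicate 2 (0.66, adjusted p = 0.091). The more abundant Ej00071486 measured 67.3, 75 and 51.4 TPM in CK, 70.2, 62.7 and 65.1 in ST and 56.8, 51 and 60.1 in MTST and was not called in TPM, while with median-of-ratios scaling it was called lower than CK in ST (-0.40) and in MTST (-0.40).

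Protoporphyrinogen oxidase, the last step before the branch point, had 2 genes that were called in opposite directions. Ej00049782 measured 65.5, 64.6 and 63.8 TPM in CK, 51.5, 47.3 and 53.7 in ST and 55.8, 53.2 and 57.1 in MTST (-0.34 ± 0.08 in ST, adjusted p = 0.0027 by limma). Ej00073440 measured 9.97, 7.82 and 9.32 TPM in CK, 20.7, 15.1 and 17.8 in ST and 14.7, 13.9 and 13.7 in MTST, a rise of 0.90 ± 0.13 in ST (adjusted p = 0.00023). These directions were called under both scalings (-0.79 and 0.49 with median-of-ratios scaling).

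In the magnesium branch, 12 of 15 members were tested. Under salt 1 was called higher and 3 lower than in CK (beside 52.8% and 10.6% of all tested genes), and with median-of-ratios scaling 0 and 10 (22.6% and 23.5%). Between MTST and ST these counts were 2 and 1 (7.9% and 29.8%), and 5 and 1 (15.1% and 13.6%). Between MTST and CK they were 1 and 3 (29.7% and 10.9%), and 0 and 4 (17.1% and 18.8%). The most abundant porphyrin member of all was Ej00051977, with the term for magnesium protoporphyrin monomethyl ester cyclase, which closes the fifth ring of chlorophyll. It measured 839, 792 and 919 TPM in CK, 530, 451 and 495 in ST and 672, 601 and 699 in MTST, with no overlap between groups. It fell in ST (-0.79 ± 0.10, adjusted p = 0.00011), was higher in MTST than in ST (0.42 ± 0.10, adjusted p = 0.01) and below CK in MTST (-0.37 ± 0.10, adjusted p = 0.016), the last not called without MTST replicate 2 (-0.31, adjusted p = 0.063).

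Magnesium chelatase inserts magnesium into protoporphyrin, and 4 of its genes were tested. Ej00000059 was called higher in MTST than in ST (0.28 ± 0.07, adjusted p = 0.013 by limma), also with median-of-ratios scaling (0.51). In ST against CK it was not called in TPM (-0.08), but was called lower with that scaling (-0.52). Its call in MTST over CK (0.20 ± 0.07, adjusted p = 0.045 by limma) did not hold with that scaling (-0.01), nor in a fit of these groups alone (0.054). The call was lost as well when any CK or MTST replicate was left out (adjusted p = 0.061 to 0.14). Ej00003678 measured 508, 475 and 613 TPM in CK, 466, 418 and 421 in ST and 542, 447 and 497 in MTST and was not called in TPM (-0.28 ± 0.11 in ST, adjusted p = 0.051 by limma; with median-of-ratios scaling it was called at -0.73). Ej00023267, with a length of 4503 bases against 4501 for Ej00003678, measured 12, 11.7 and 12.2 TPM in CK, 13.6, 11.6 and 11.8 in ST and 4.39, 5.32 and 3.82 in MTST. It was lower in MTST than in ST (-1.28 ± 0.13, adjusted p = 0.00013) and than in CK (-1.24 ± 0.13, adjusted p = 7.1e-05), and all MTST libraries were below all others. Between ST and CK it was not called in TPM (0.04) and was called lower with median-of-ratios scaling (-0.38). If Ej00003678 and Ej00023267 are near-identical copies, which their lengths alone cannot show, reads could have been split between them.

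Protochlorophyllide reductase, which in flowering plants needs light, had the gene Ej00072021, with 280, 239 and 393 TPM in CK, 479, 340 and 420 in ST and 353, 314 and 357 in MTST. CK and ST overlapped, and its call in TPM (0.46 ± 0.18, adjusted p = 0.042 by limma) did not hold with median-of-ratios scaling (0.01), in a fit of ST and CK alone (adjusted p = 0.082), with FPKM as deposited (0.087), in limma-voom (0.076), without the filter (0.065), or without CK replicate 1 or 2 or ST replicate 1 or 3 (adjusted p = 0.099 to 0.16). Chlorophyllide a oxygenase, which makes chlorophyll b, had the gene Ej00031979, with 142, 125 and 148 TPM in CK, 126, 106 and 104 in ST and 108, 90.4 and 120 in MTST. It was called lower in ST (-0.30 ± 0.12, adjusted p = 0.048) and in MTST (-0.38 ± 0.12, adjusted p = 0.028) than in CK. The call in ST was lost without CK replicate 1 or 3 or ST replicate 2 or 3 (adjusted p = 0.12 to 0.15) or the filter (0.063), and that in MTST without CK replicate 1 or 3 or MTST replicate 1 or 2 (0.058 to 0.1).

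The abundant geranylgeranyl reductase gene Ej00024114, which supplies the phytyl tail of chlorophyll, measured 273, 248 and 335 TPM in CK, 322, 238 and 292 in ST and 321, 280 and 283 in MTST, with overlap in all comparisons and no call in TPM (with median-of-ratios scaling it was called lower in ST, at -0.46). A weak gene of the same activity, Ej00065639, measured 1.18, 1.4 and 2.9 TPM in CK, 0.822, 0.826 and 0.502 in ST and 1.14, 0.606 and 1.56 in MTST. It was called lower in ST (-0.68 ± 0.26, adjusted p = 0.044 by limma), but not without CK replicate 3 (-0.42, adjusted p = 0.17), CK replicate 2 or any ST replicate (0.054 to 0.13). The call was also lost in a fit of ST and CK alone (0.057). Every CK library of this gene reached 1 TPM and no ST library did. It would not have passed the filter without CK, the group where it was high, so its call is no separate support for a fall.

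In the conversion of chlorophyll b and the breakdown of chlorophyll, 8 of 11 members were tested. The genes of these consecutive steps were called in different directions in ST against CK in TPM, but not with median-of-ratios scaling. Between ST and CK 2 were called higher and 3 lower (beside 52.8% and 10.6% of all tested genes), and in MTST against ST 3 higher and 0 lower (7.9% and 29.8%). With median-of-ratios scaling these counts were 0 and 5 (22.6% and 23.5%), and 6 and 0 (15.1% and 13.6%). In MTST against CK they were 3 and 0 (29.7% and 10.9%), and with median-of-ratios scaling 1 and 1 (17.1% and 18.8%).

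All 3 genes called lower in ST in TPM belong to the conversion of chlorophyll b to a. Ej00016463, a chlorophyll(ide) b reductase gene, measured 211, 204 and 188 TPM in CK, 97.5, 129 and 111 in ST and 180, 172 and 209 in MTST. ST was below both other groups, which overlapped (-0.84 ± 0.11 in ST against CK, adjusted p = 0.00015, and 0.73 ± 0.11 in MTST against ST, adjusted p = 0.0012, by limma). The gene for 7-hydroxymethyl chlorophyll a reductase, Ej00023810, which completes the conversion, measured 58.9, 59.7 and 48.4 TPM in CK, 36, 42.2 and 38.1 in ST and 57.1, 58 and 69.5 in MTST (-0.51 ± 0.11, adjusted p = 0.0029, and 0.65 ± 0.11, adjusted p = 0.002, by limma). Both falls and both rises were also called with median-of-ratios scaling. The other chlorophyll(ide) b reductase genes were Ej00038654, called lower in ST (-0.59 ± 0.15, adjusted p = 0.0062 by limma), and Ej00047834, not called in TPM (-0.22 ± 0.12) and called lower with median-of-ratios scaling (-0.67).

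No gene of the breakdown steps was called lower in TPM. Chlorophyllase removes the phytyl tail, and its gene Ej00081165 measured 25, 22.6 and 32.8 TPM in CK, 45.8, 59.2 and 44.7 in ST and 69, 75.8 and 57.9 in MTST. ST and CK did not overlap, and nor did MTST and CK. The rise in ST was 0.88 ± 0.16 (adjusted p = 0.00085), and with median-of-ratios scaling 0.44 (adjusted p = 0.058), while the rise in MTST over CK (1.31 ± 0.16, adjusted p = 0.00018) was called under both. Pheophorbide a oxygenase, gene Ej00027732, measured 93.9, 92.9 and 98 TPM in CK, 121, 161 and 155 in ST and 128, 131 and 143 in MTST. It rose in ST (0.60 ± 0.11, adjusted p = 0.00076) and in MTST over CK (0.49 ± 0.11, adjusted p = 0.0048), and neither was called with median-of-ratios scaling (0.16 and 0.28). Ej00027389, with the term for red chlorophyll catabolite reductase, the enzyme of the next step, was called only in MTST, at 0.35 ± 0.07 over CK (adjusted p = 0.0041) and 0.24 ± 0.07 over ST (adjusted p = 0.031), the latter not without MTST replicate 2 or 3 or ST replicate 1 or 3 (0.062 to 0.096). With median-of-ratios scaling it was called lower in ST than in CK (log2 change -0.33), and higher in MTST than in ST (0.47) but not than in CK (0.14).

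In the heme and bilin branch all 8 members were tested, and in ST against CK 1 was called higher and 4 lower (beside 52.8% and 10.6% of all tested genes), or 0 and 5 with median-of-ratios scaling (22.6% and 23.5%). Between MTST and ST the counts were 3 and 1 (7.9% and 29.8%), and 5 and 1 with that scaling (15.1% and 13.6%). Between MTST and CK they were 1 and 3 under both (29.7% and 10.9% in TPM, 17.1% and 18.8% with median-of-ratios scaling). Ferrochelatase inserts iron into protoporphyrin, and 3 of its 4 genes fell. Ej00069009 measured 190, 191 and 161 TPM in CK, 100, 106 and 94.3 in ST and 128, 131 and 144 in MTST, with no overlap (-0.84 ± 0.09 in ST, adjusted p = 3.8e-05 by limma, and 0.42 ± 0.09 in MTST against ST, adjusted p = 0.0059). Ej00074334 measured 58.6, 59.9 and 57.5 TPM in CK, 33.6, 30 and 26.2 in ST and 34.8, 36.3 and 39.5 in MTST (-0.95 ± 0.10 in ST, adjusted p = 2.7e-05 by limma). Its difference between MTST and ST (0.30 ± 0.10, adjusted p = 0.038) was not called without MTST replicate 1, 2 or 3 or ST replicate 2 or 3 (0.055 to 0.14), nor in a fit of MTST and ST alone (0.069).

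Ej00082249 was the ferrochelatase gene that fell further in MTST. It measured 176, 174 and 146 TPM in CK, 107, 97.7 and 90.5 in ST and 68.7, 66.2 and 61.1 in MTST, in 3 groups without overlap. It was lower in ST than in CK (-0.74 ± 0.10, adjusted p = 0.00013), lower in MTST than in ST (-0.58 ± 0.10, adjusted p = 0.0017) and lower in MTST than in CK (-1.32 ± 0.10, adjusted p = 1.3e-05), and all 3 were called in each alternative. The least abundant gene, Ej00059371, at 14 to 15.6 TPM on average in each group, was called in no comparison under either scaling.

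Heme oxygenase opens the heme ring on the way to the phytochrome pigment. Its gene Ej00017939 measured 36.3, 37.9 and 32 TPM in CK, 49.1, 55.6 and 59.7 in ST and 60, 60.5 and 65.5 in MTST. It rose in MTST over CK (0.79 ± 0.10, adjusted p = 0.00019) and in ST over CK (0.61 ± 0.10, adjusted p = 0.00038), the latter at 0.17 and not called with median-of-ratios scaling. The more abundant Ej00047758 was at 91 ± 0.629 TPM in CK, 81.4 ± 8.9 in ST and 102 ± 2.37 in MTST (SD, n = 3), and was called only in MTST against ST (0.33 ± 0.09, adjusted p = 0.014 by limma). With median-of-ratios scaling it was also called lower in ST than in CK (log2 change -0.61). The gene for phytochromobilin:ferredoxin oxidoreductase, in the same branch, was called lower in ST than in CK under both scalings (log2 changes -0.44 and -0.87). Every ST library was below every CK library. In MTST against ST it was not called in TPM (0.35) and was called higher with median-of-ratios scaling (0.58).

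Ratios between genes of the same activity within a library do not depend on scaling. Among the 27 pairs, over 13 activities, in which both genes had at least 10 reads in each library, the ratio did not overlap between ST and CK in 12, between MTST and ST in 16 and between MTST and CK in 17. Over all 213159628 pairs of the 20648 genes with as many reads, the ratio did not overlap in 56.0%, 47.0% and 52.6%, so that such a separation was common in these libraries. Pairs shared genes where an activity had more than 2, and the pairs described here were chosen after their values were seen and were not tested.

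The ratio of glutamyl-tRNA reductase Ej00039521 to Ej00031680 was 1.64 ± 0.0237 in CK, 0.774 ± 0.0429 in ST and 0.999 ± 0.0779 in MTST (SD, n = 3), so that the more abundant gene changed place under salt. That of protoporphyrinogen oxidase Ej00049782 to Ej00073440 was 7.22 ± 0.905, 2.89 ± 0.348 and 3.93 ± 0.207. In both pairs ST was lowest, and MTST lay between ST and CK. The ferrochelatase ratio of Ej00069009 to Ej00082249 was 1.1 ± 0.0108 in CK, 1.02 ± 0.0753 in ST and 2.07 ± 0.259 in MTST, and that of the magnesium chelatase genes Ej00003678 to Ej00023267 was 44.5 ± 5.26, 35.3 ± 0.967 and 112 ± 24.9. In these 2 pairs MTST stood apart from both other groups.

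**Figure D5:**
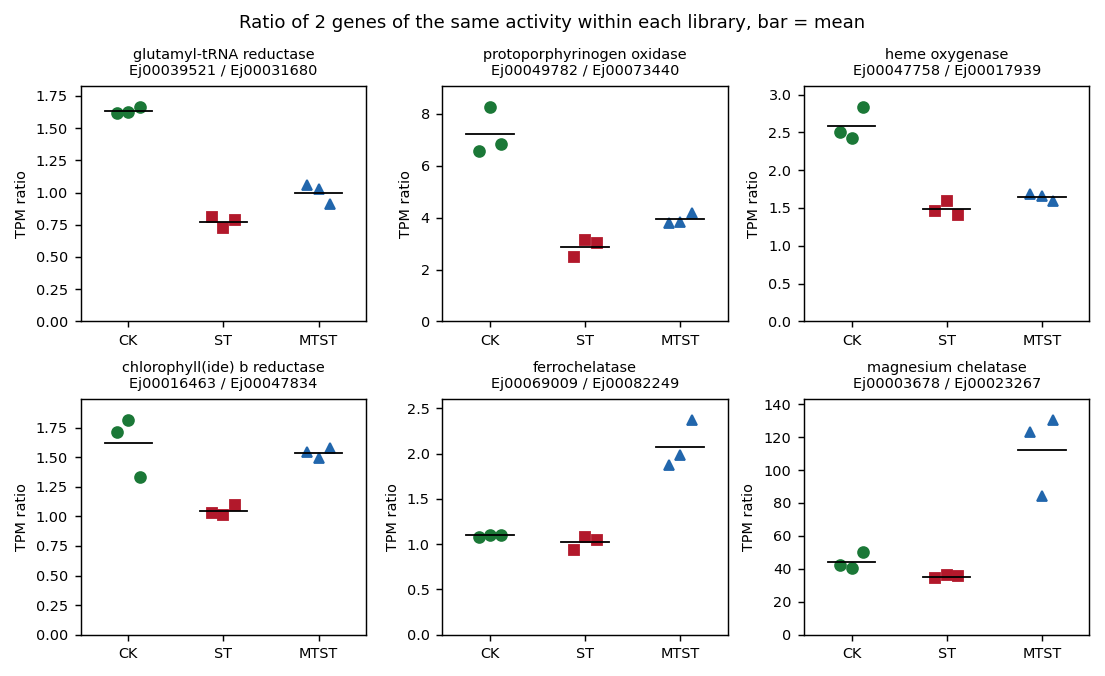
Ratio of the TPM of 2 genes of the same activity within each library (vertical axes from 0) for 6 pairs, with 1 point per library and the mean as a bar. In the glutamyl-tRNA reductase pair the mean ratio is 1.64 in CK and 0.774 in ST, and in the magnesium chelatase pair it is 112 in MTST and 44.5 in CK.

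Of the 21 porphyrin members without a term for a step, 17 were tested, and in ST against CK 7 were called higher and 1 lower, beside 52.8% and 10.6% of all tested genes. With median-of-ratios scaling 3 were called higher and 5 lower, beside 22.6% and 23.5%. Between MTST and ST 0 were called higher and 5 lower (7.9% and 29.8%), or 3 and 0 with that scaling (15.1% and 13.6%). Between MTST and CK these counts were 6 and 2 (29.7% and 10.9%), or 4 and 3 (17.1% and 18.8%). Ej00034942 had no read in any CK library, 1.61, 3.99 and 3.93 TPM in ST, from 26, 64 and 66 reads, and 1.28, 1.23 and 0.971 TPM in MTST, from 23, 22 and 18 reads. Against an assumed floor of 3 reads per library in CK, its mean was about 18.3-fold higher in ST and about 6.67-fold higher in MTST. The ST libraries spread widely (3.18 ± 1.35 TPM, SD, n = 3). Every ST library of this gene reached 1 TPM, but not every MTST library. It would not have passed the filter without ST, the group where it was high, so its place among the called members is no separate support. Ej00077424 measured 2.6, 2.27 and 3.19 TPM in CK, 8.03, 7.5 and 6.87 in ST and 5.01, 4.93 and 4.88 in MTST (1.21 ± 0.14 in ST, adjusted p = 5.1e-05 by limma). Both are also on the KEGG map of oxidative phosphorylation and carry terms of the mitochondrial envelope.

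Ej00057210, named after its values were seen, was called higher in ST in TPM (0.23, adjusted p = 0.036 by limma) and lower with median-of-ratios scaling (-0.21, adjusted p = 0.045). Its call in TPM was also lost in a fit of ST and CK alone (0.055), with FPKM as deposited (0.13), in limma-voom (0.135), and without CK replicate 2 or 3 or ST replicate 1 or 3 (0.059 to 0.13). Ej00064747 fell in ST and was lower still in MTST, with 88.9, 102 and 77.4 TPM in CK, 51.7, 46.2 and 38.6 in ST and 36, 33.1 and 32.5 in MTST. The groups did not overlap, and it was called in ST against CK (-0.96 ± 0.13, adjusted p = 0.00012) and MTST against CK (-1.37 ± 0.13, adjusted p = 3.8e-05) under every alternative. The difference between MTST and ST (-0.41 ± 0.13, adjusted p = 0.028) was not called with median-of-ratios scaling (-0.17), with the FPKM as deposited (adjusted p = 0.061), in limma-voom (0.053), or without ST replicate 1 or 2 or MTST replicate 2 or 3 (0.06 to 0.086). Ej00073521 was called lower in MTST than in ST (-0.56 ± 0.19, adjusted p = 0.041 by limma) at 4.79 ± 1.35 TPM in ST and 2.87 ± 0.408 in MTST (SD, n = 3). It lost that call without any of MTST replicates 1 to 3 or ST replicate 2 or 3 (0.066 to 0.13) and in a fit of MTST and ST alone (0.063). The call was also lost without the filter, with FPKM as deposited, with median-of-ratios scaling and in limma-voom.

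Of the 98 members, 11 were not tested, and 7 of these had no read in any library. Those 7 comprised 2 with the chlorophyllase term, 2 with the term for magnesium protoporphyrin methyltransferase, 1 with that for chlorophyllide a oxygenase and 2 without a term for a step. They were not detected at this depth, and the reason was not tested. The other 4 stayed under the filter at up to 1.08 TPM in any library.

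Related lists are given beside the members, without a test of the difference. Under salt, 42 of 63 tested genes of the photosynthesis map were called lower and 3 higher, beside 10.6% and 52.8% of all tested genes. Their median was -0.64, beside -0.84 for the antenna members. In MTST against ST, 40 were called higher and 8 lower (7.9% and 29.8% of all tested genes), with a median of 0.53, beside 0.67. With median-of-ratios scaling these counts were 48 lower and 2 higher (23.5% and 22.6%), and 45 higher and 4 lower (15.1% and 13.6%). In MTST against CK, 26 genes of this map were called lower and 4 higher in TPM (10.9% and 29.7%), and 37 and 2 with that scaling (18.8% and 17.1%). Of 90 tested genes of the map of carbon fixation, 42 were called lower and 38 higher in ST against CK, beside 10.6% and 52.8% of all tested genes, with a median of -0.12. With median-of-ratios scaling 46 were called lower and 20 higher, beside 23.5% and 22.6%, with a median of -0.59. A wider list of 27 genes outside both maps, whose GO terms name light harvesting, chlorophyll binding or the making or breakdown of chlorophyll and tetrapyrroles, had 26 tested genes. Of these, 8 were called higher and 10 lower in ST against CK (52.8% and 10.6% of all tested genes). The counts were 9 and 1 in MTST against ST (7.9% and 29.8%), and 5 and 5 in MTST against CK (29.7% and 10.9%). With median-of-ratios scaling these counts were 1 and 15 (22.6% and 23.5%), 15 and 0 (15.1% and 13.6%), and 2 and 7 (17.1% and 18.8%).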

How the data were processed

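The authors deposited FPKM values per gene for 9 libraries, with GO terms and KEGG maps. Per the study's methods and the labels, reads were trimmed, aligned with HISAT2 to a loquat genome and counted with Rsubread. Versions, strand setting and the handling of shared reads were not given in the sources used here. The deposited columns of the authors' own comparisons (log2 fold changes and p-values) and group averages were not used.

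FPKM was rescaled here to TPM. Whole reads and a length were recovered for 31458 of 31458 genes above 0 (tolerance 1e-05 reads, lengths of 60 to 20000 bases), giving 99.979% to 99.984% of the library totals. Replicates differed by more than sampling noise. All 9 libraries entered 1 limma fit (version 3.58.1, R 4.3.3, trended empirical Bayes) on log2(TPM + 1). The fit covered 23641 genes that reached 1 TPM in 3 or more libraries, and the script was tested on simulated data. These fold changes understate the change of weak genes. Alternatives were a pseudocount of 0.1, no filter, FPKM as deposited, median-of-ratios scaling, limma-voom on the recovered reads, 2 groups only, a replicate block, and leaving out each library. Tables used pandas 2.3.3 and numpy 2.4.6 under Python 3.11.15, and plots matplotlib 3.10.9.

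The members and lists were chosen with earlier results of these data known. Members named are, by rule, the 5 most abundant antenna genes, the 3 largest called changes in each comparison, and in each porphyrin group the most abundant member and the 2 largest called changes. Others were named after their values were seen. The design text says that the procedure was carried out 3 times, and p-values measure the spread between these samples, which may be in part technical.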

Additional observations from a re-analysis of the deposited data

How the results depend on the processing

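Median-of-ratios scaling changed the most. With it, 5 members were called higher and 57 lower in ST against CK, 47 higher and 4 lower in MTST against ST, and 9 higher and 32 lower in MTST against CK, against 19, 36, 33, 10, 16 and 17 in TPM. The shares of all tested genes called higher and lower moved as well. In ST against CK they went from 52.8% and 10.6% in TPM to 22.6% and 23.5%. In MTST against ST they went from 7.9% and 29.8% to 15.1% and 13.6%, and in MTST against CK from 29.7% and 10.9% to 17.1% and 18.8%. The antenna median became -1.29, 0.91 and -0.44 in the 3 comparisons, and the porphyrin median turned from 0.066 to -0.35 in ST against CK and from 0.04 to -0.17 in MTST against CK, and became 0.21 in MTST against ST. In ST against CK, 24 members turned in sign, of which 2 were called in both directions and 8 were called with median-of-ratios scaling alone, Ej00023267 (0.04 to -0.38) and Ej00068343 (0.09 to -0.36) among them. Limma-voom on recovered reads gave porphyrin medians of -0.00802 in ST against CK and 0.071 in MTST against ST, and an antenna median of 0.76 in MTST against ST, and FPKM as deposited gave porphyrin medians of 0.0026 and 0.036 in the same comparisons. The cause was not tested. Leaving out a replicate of either group compared gave porphyrin medians of 0.039 to 0.098 in ST against CK, -0.020 to 0.047 in MTST against ST and 0.024 to 0.084 in MTST against CK. In the same runs 8 to 14 members were called lower in MTST against CK, beside 7.76% to 10.8% of all tested genes. The same replicate numbers did not deviate together (r = -0.152 to 0.083). With a replicate block, 16 members were called higher and 37 lower in ST against CK, 31 and 9 in MTST against ST, and 14 and 15 in MTST against CK. Over all tested genes the shares in that run were 51.7% and 10.5%, 7.39% and 27.7%, and 28.2% and 10.4%. Low genes are limited by depth.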
